A study of Mus musculus with 8 samples.

Results

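Interferon-stimulated genes are the genes that a cell switches on when interferon, a signalling protein of antiviral defence, reaches its receptors. The set described here was 46 mouse genes fixed by name, and 45 of them had a row among the 10720 genes of the single-cell expression table. The remaining gene, Mx2, was not analysed here. The members were grouped by role into transcription factors, sensors of RNA and DNA, proteins that bind or degrade RNA, the ISG15 system, ADP-ribosylation enzymes, GTPases, membrane proteins and others.

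Type I interferons bind Ifnar1 and Ifnar2, whose kinases Jak1 and Tyk2 start a relay to the nucleus. It ends in the ISGF3 complex, to which Stat2 and Irf9 belong and which binds the interferon-stimulated response element (ISRE) in promoters, whereas interferon-gamma acts through the gamma-activated site (GAS). Hematopoietic stem cells (HSCs) are known to hold part of this programme at a steady level without infection and to leave quiescence when interferon reaches them.

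The study asked how HSCs change on loss of Med23, which belongs to Mediator, the protein complex between transcription factors and RNA polymerase II. Cells from bone marrow of adult C57BL/6 mice were sorted as lineage-negative, Sca1+, c-Kit+ (LSK) cells of the CD150+CD34-CD48- phenotype, picked by hand, and counted by unique molecular identifiers (UMIs), tags that count each captured messenger RNA once. There were 304 cells labelled WT (Mx1-cre- Med23 L/L littermates) and 282 labelled KO (Mx1-cre+ Med23 L/L), from 4 libraries each, so both groups carried floxed Med23. In KO mice Cre was driven by the Mx1 promoter, itself an interferon target, and was switched on by poly(I:C), a double-stranded RNA mimic that induces interferon throughout the animal. For blood counts the study sampled both genotypes after poly(I:C), but for the mice of these libraries the injection of controls, the time from injection to sorting and the number of mice were not given in the sources used here. If controls were not injected, a direct effect of poly(I:C) and an effect of Med23 loss on these genes cannot be told apart. The table gives the genotype of each cell but not its library, so each label was 1 pool, no difference below has a replicate check, and no test was run.

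The study's minimum of 2000 detected genes and 20000 UMIs a cell was applied again, to counts over the 10720 genes of the table only. With it, 259 cells labelled WT (21475782 UMIs, median 59649 a cell) and 234 labelled KO (16180546 UMIs, median 50281) were kept. The 45 WT and 48 KO cells left out had been retained by the study. Med23 was counted 122 times under the WT label and 117 times under the KO label (5.68 and 7.23 CPM, UMIs per 1000000 UMIs of the pool). Its log2 ratio of 0.35 had a counting interval that held 0 (-0.03 to 0.73), kept its sign under 6 of 9 alternatives (range -0.40 to 0.37), and 1 KO cell held 28 of the 117 UMIs. At equal depth 9.27% of WT cells and 7.26% of KO cells had a Med23 UMI, with overlapping intervals, so the label was not borne out by Med23 counts. Whether the counted 3′ end of Med23 lies within the floxed stretch was not given in the sources used here, and direction is therefore stated by label only. All 12 HSC markers were in the table, at a summed 1469 CPM in WT and 1388 in KO, although single markers differed: Slamf1 (CD150) was at 39.0 and 8.16 CPM (log2 ratio -2.26), Hlf at 235 and 147 (-0.68) and Ly6a at 273 and 189 (-0.53), against Mecom at 32.9 and 72.3 (1.14) and Meis1 at 292 and 439 (0.59). Oocyte transcripts summed to 2712 CPM in WT and 142 in KO, and 67 WT cells and 4 KO cells held over 1000 CPM of them. These 67 cells held 25.2% of the WT pool's UMIs, and results are also given without them. The defining markers of other blood cells were mostly outside the table, which kept genes with a mean over 0.2 counts: 2 of 8 plasmacytoid dendritic cell markers (Tcf4 and Irf8, together 192 CPM in WT and 295 in KO), 2 of 9 macrophage markers (C1qa and Spic, 9.08 and 30.5), 2 of 9 neutrophil markers (23.6 and 11.4) and 3 of 13 lymphocyte markers (231 and 296) were present. Irf8 alone was at 15.6 CPM in WT and 43.6 in KO (log2 ratio 1.48), and was found in 7.34% of WT and 23.9% of KO cells at equal depth. The summed macrophage level in single cells ranged from 0 to 681 CPM in WT and from 0 to 687 in KO, with a median of 0 in both. Of 6 erythroid markers 3 were present, at a summed 1477 CPM in WT and 1160 in KO. Car1 had 3 UMIs in WT and 989 in KO, Klf1 213 and 39, and Car2 31497 and 17739. Of 8 endothelial and stromal markers 6 were present (72.7 and 64.5 CPM), and single ones went both ways. Col1a1 had 345 UMIs in WT and 4 in KO, and Emcn 472 and 707. Cd34, which the sort excluded, was at 178 CPM in WT and 304 in KO. The part of these cell types in the results below was not tested.

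The interferon-stimulated genes were on the whole at a higher level in the pool labelled KO. Of the 45 members, 42 had a higher CPM in KO and 3 a lower one, whereas 51.9% of all 10720 genes were higher in KO. At least 1.5-fold higher were 23 members, 51.1% of those in the table, beside 17.2% of all genes, and at least 1.5-fold lower were 0 members beside 15.5%. The median log2 ratio of KO over WT was 0.63 over the members and 0.02 over all genes. At least 2-fold higher were 10 members beside 6.98% of all genes, and 2-fold lower 0 beside 7.94%. A gene entered the table by its mean over all cells, so a member that entered through the pool where it was high had to differ, and these counts are descriptions. Over all cells of the table Oas2, Ifit3 and Mx1 averaged under 0.2 UMI in WT (0.16, 0.15 and 0.18) and above it in KO (0.68, 0.36 and 0.40), so they entered through the KO cells.

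The size of the difference depended on how cells were weighted. When each cell was given equal weight, through the mean of the authors' normalized values, 13 members were at least 1.5-fold higher beside 10.3% of all genes and 0 were lower beside 19.3%, and the median was 0.40 for members and -0.14 for all genes. When every cell was thinned to 20000 UMIs before summing, 21 members were past 1.5-fold beside 15.5% of all genes, with a median of 0.51. Without the cells rich in oocyte transcripts the count was 24 beside 18.6%, with a median of 0.65. Past 1.5-fold in the main calculation and under each of 9 alternatives were 10 members, beside 6.58% of all genes: Irf7, Zbp1, Oas1a, Oas3, Oasl2, Isg15, Rtp4, Sp100, Trim30a and Oas2, the last having entered the table through the KO cells.

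**Figure D1:**
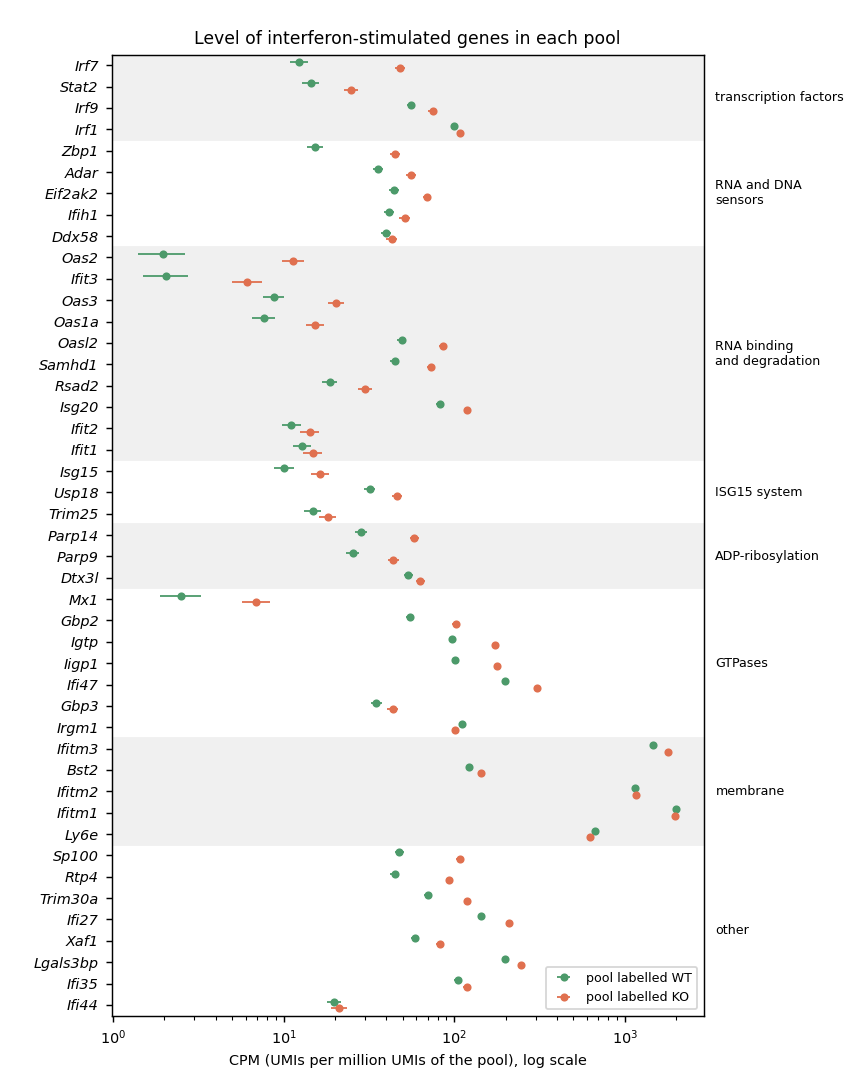
Each row is 1 gene of the set, grouped by role, and the horizontal axis is its level in CPM on a log scale. Green points are the pool labelled WT and orange points the pool labelled KO, with exact 95% Poisson intervals that cover counting error only. The 4 genes at the right end, Ifitm1, Ifitm3, Ifitm2 and Ly6e, lie far above the other members, and their 2 points nearly coincide except for Ifitm3.

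Because the ISRE is the DNA element through which ISGF3 acts, the promoters of the members were searched for it. The core searched was GAAA, then any 2 bases, then GAAA, on both strands of the RefSeq promoter windows of GRCm38.p6, which run from 250 bases before to 50 bases after each annotated start. The RefSeq windows matched 35 of the 46 members by symbol. Ifi27, Oas2, Mx1, Mx2, Usp18, Rtp4, Parp9, Parp14, Iigp1, Zbp1 and Ly6e did not match. A core was found in 18 of the 35 (51.4%), beside 3.99% of 27025 genes, and in 46.2% of 65 other interferon-stimulated genes. A GAS core (TTCNNNGAA) was found in 11 members (31.4%) beside 9.55% of all genes and 12.3% of the 65 others. The members are known targets of factors that bind these elements, so these shares describe the chosen set and not the cells. The 6 promoters below all hold the core but belong to genes with different ratios, the first 3 past 1.5-fold and the last 3 not. Capitals mark the core, and each sequence runs 5′ to 3′ on the strand of its gene.

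Oas3: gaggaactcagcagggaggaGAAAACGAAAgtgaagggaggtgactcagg

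Oas1a: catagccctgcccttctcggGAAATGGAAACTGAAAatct

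Igtp: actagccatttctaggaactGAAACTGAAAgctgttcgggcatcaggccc

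Irgm1: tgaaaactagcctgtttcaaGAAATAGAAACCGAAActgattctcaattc

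Ifit1: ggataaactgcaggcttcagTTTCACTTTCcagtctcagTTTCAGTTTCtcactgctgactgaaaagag

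Ifitm2: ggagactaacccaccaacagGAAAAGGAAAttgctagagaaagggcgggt

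The Oas3 stretch lies at chr5:120777705-120777754 on the minus strand, with its core 75 bases before the start. That of Oas1a (chr5:120907526-120907565, minus strand) and that of Irgm1 (chr11:48871421-48871470, minus strand) each hold 2 overlapping cores, 20 and 14 bases before the start in Oas1a and 30 and 24 in Irgm1. That of Igtp (chr11:58199502-58199551, plus strand) has 1 core 34 bases before the start, and that of Ifitm2 (chr7:140955978-140956027, minus strand) has 1 core 46 bases before it. That of Ifit1 (chr19:34640765-34640833, plus strand) has 2 cores on the opposite strand, 104 and 85 bases before the start. The log2 ratios of these genes were 1.22 for Oas3, 1.005 for Oas1a, 0.84 for Igtp, -0.13 for Irgm1, 0.21 for Ifit1 and 0.03 for Ifitm2. The ratio was not tested against presence of the core, and the 11 members without a window include Oas2, Zbp1, Rtp4, Parp14 and Mx1. The 18 with it had a median of 0.66 (range -0.13 to 1.58, 10 past 1.5-fold) and the 17 without it a median of 0.42 (range -0.02 to 1.97, 6 past 1.5-fold), and the ranges overlapped. Irf7, which had the largest ratio among the 35, had no core in this window.

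Among the transcription factors, Irf7, which drives the type I interferon genes themselves, had the largest ratio among the members that averaged 0.5 UMI a cell or more. It was counted 264 times in the WT pool (12.3 CPM, 95% Poisson interval 10.9 to 13.9) and 781 times in the KO pool (48.3 CPM, 44.9 to 51.8), a log2 ratio of 1.97 (95% counting interval 1.77 to 2.18). At equal depth, an Irf7 UMI was found in 8.88% of WT cells and 17.9% of KO cells. A single KO cell held 147 of the KO counts (18.8%). The log2 ratio was 1.69 without that cell and 1.27 on the authors' normalized values. Stat2, the subunit that gives ISGF3 its power to activate transcription, was at 14.4 and 24.9 CPM, a log2 ratio of 0.79. Irf9, which carries the DNA-binding part of ISGF3, was at 56.0 and 74.7 CPM, a log2 ratio of 0.42. Irf9 stood out more in the share of cells, 34.4% (28.6 to 40.5) in WT and 50.4% (43.8 to 57.0) in KO. Irf1, a factor induced early by interferon-gamma, differed little, with 99.3 and 109 CPM and a log2 ratio of 0.13.

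Of the sensors of foreign nucleic acid, Zbp1, which recognises the left-handed Z form, showed the widest gap. Its level was 15.2 CPM (13.6 to 16.97) in WT and 44.99 CPM (41.8 to 48.4) in KO, a log2 ratio of 1.56 (1.37 to 1.76). A Zbp1 UMI was present in 9.27% of WT cells (binomial interval 6.03 to 13.5) and 25.6% of KO cells (20.2 to 31.7), so these intervals did not overlap. Adar, the enzyme that edits double-stranded RNA, and Eif2ak2 (PKR), the kinase that stops translation on sensing it, both had log2 ratios of 0.64, with 35.7 and 55.7 CPM for Adar and 44.5 and 69.2 CPM for Eif2ak2. On the authors' normalized values these were 0.25 and 0.40. The 2 RNA helicases that signal through Mavs differed less: Ifih1 (MDA5) had a log2 ratio of 0.31 and Ddx58 (RIG-I) 0.11, and the counting interval of Ddx58 (-0.03 to 0.26) held 0. The log2 ratio of Ifih1 was 0.005 on the authors' normalized values and 0.014 when cells were thinned to equal depth.

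Of the proteins that bind or degrade RNA, the set holds 4 of the oligoadenylate synthetase family, whose product activates the RNA-cutting enzyme RNase L. Oas2, which entered the table through the KO cells, was rare in both pools, with 42 and 184 UMIs (1.96 and 11.4 CPM), a log2 ratio of 2.54 (2.05 to 3.06), and 1 cell held 29.9% of the KO counts. Oas3 had 188 and 329 UMIs (8.75 and 20.3 CPM, log2 ratio 1.22) and Oas1a 164 and 248 (7.64 and 15.3 CPM, log2 ratio 1.005). Oasl2, a relative of the synthetases, was at 49.2 and 86.3 CPM, a log2 ratio of 0.81, and was found in 29.0% of WT cells and 42.7% of KO cells. All 4 were higher in KO, as were 51.9% of all genes. Of 7 further genes of the family in the table, 3 were higher and 4 lower in KO. The 4 lower ones, Oas1c, Oas1d, Oas1e and Oas1h, are on the oocyte list and had 83.7% to 96.0% of their WT UMIs in the cells rich in oocyte transcripts. Reads of near-identical Oas1 copies can be shared between genes, how they were assigned was not given in the sources used here, and Oas1a is uncertain to that extent.

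The IFIT genes, whose proteins hold back translation of RNA without a mature cap, differed in ratio among themselves. Ifit1 had 276 and 240 UMIs (12.85 and 14.8 CPM) and a log2 ratio of 0.21, with a counting interval that held 0 (-0.05 to 0.46). Ifit2 had a log2 ratio of 0.36 and Ifit3 one of 1.58. Ifit3 rested on 44 and 99 UMIs, 52 of the latter in 1 KO cell, and without that cell its log2 ratio was 0.52. The share of cells with an Ifit3 UMI was 3.09% in WT and 3.42% in KO. Of the others in this role, the nucleotide hydrolase Samhd1 was at 44.8 and 73.2 CPM (0.71 on the log2 scale), the antiviral enzyme Rsad2 (viperin) at 18.7 and 30.04 CPM (0.69), and the exonuclease Isg20 at 82.4 and 119 CPM (0.53). For Isg20 1 KO cell held 14.1% of the counts, and its log2 ratio was 0.08 on the authors' normalized values.

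Isg15, the ubiquitin-like protein that is attached to others during an interferon response, was at 10.1 CPM (8.80 to 11.5) in WT and 16.4 CPM (14.5 to 18.5) in KO, a log2 ratio of 0.70 (0.44 to 0.97). Usp18, which removes Isg15 and also dampens the type I receptor, had a log2 ratio of 0.53, but 55.3% of its WT UMIs lay in the cells rich in oocyte transcripts. Without those cells its log2 ratio was 1.28. Trim25, a ligase that acts on RIG-I, had a log2 ratio of 0.29. It was -0.03 without the 1 cell with the most Trim25 UMIs, a KO cell. The 3 genes of the ADP-ribosylation system were also higher in KO. Parp14 was at 28.4 and 58.4 CPM, a log2 ratio of 1.04, and Parp9, which acts with the ubiquitin ligase Dtx3l, at 25.4 and 43.8 CPM, a log2 ratio of 0.79. The 2 partners differed in size, since Dtx3l was at 53.9 and 63.1 CPM, a log2 ratio of 0.23. The ratio of Parp9 was 0.09 when cells were thinned to equal depth.

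Counts of several GTPases of intracellular defence came largely from few cells, which was not particular to this role. The 10% of WT cells with the most of a gene held 61.6% of the WT counts for Igtp. They held 93.3% for Zbp1 and 87.9% for Usp18, but 43.3% for Lgals3bp. Igtp (Irgm3) was at 97.4 CPM (93.3 to 102) in WT and 174 CPM (168 to 181) in KO, a log2 ratio of 0.84, and Iigp1 at 102 and 177 CPM, a log2 ratio of 0.81. The 10% of WT cells with the most Iigp1 held 73.7% of its WT counts, and the corresponding value in KO was 69.5%. For Igtp 1 KO cell held 437 UMIs (15.5% of the pool), and its log2 ratio was 0.42 on the authors' normalized values. Ifi47, a further GTPase of this family, was spread more evenly, in 74.5% of WT and 79.9% of KO cells, at 198 and 306 CPM and a log2 ratio of 0.63. Gbp2, a guanylate-binding protein, had a log2 ratio of 0.89 (54.9 and 102 CPM) and Gbp3 one of 0.32 (34.97 and 43.8 CPM). Irgm1, which restrains the other family members, was the exception, with 111 CPM (107 to 116) in WT and 101.5 CPM (96.6 to 107) in KO. Its log2 ratio of -0.13 changed sign under some alternatives (range -0.32 to 0.12). Mx1, the gene whose promoter drives the Cre transgene, had only 54 and 112 UMIs, a log2 ratio of 1.46. Of its WT counts 79.6% lay in the cells rich in oocyte transcripts, and without those cells the log2 ratio was 3.35 (11 and 112 UMIs). A single KO cell held 42.9% of the KO counts. The log2 ratio was 0.66 without that cell and 0.43 with the stricter cell minimum of 3000 genes and 30000 UMIs.

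**Figure D2:**
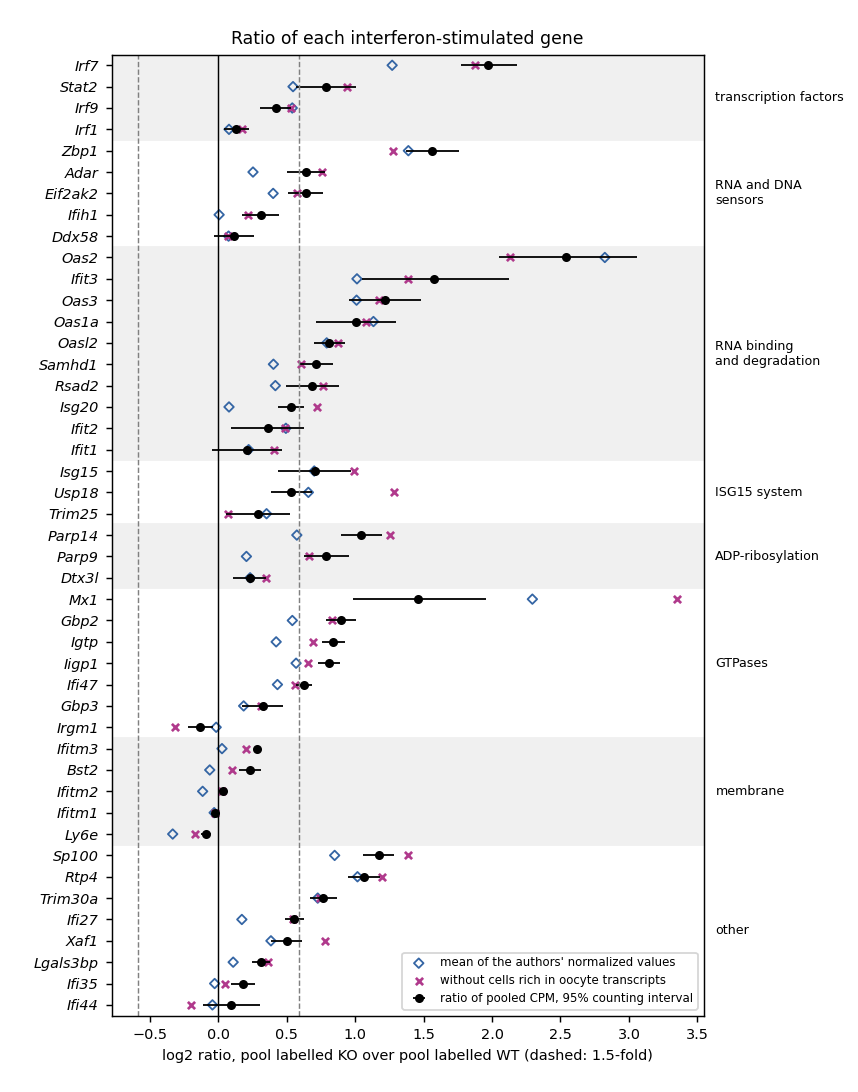
Each row is 1 gene and the horizontal axis is the log2 ratio of the pool labelled KO over the pool labelled WT; black points with 95% counting intervals are ratios of pooled CPM, open diamonds the mean of the authors' normalized values, and crosses the pools without cells rich in oocyte transcripts. Dashed lines mark 1.5-fold. Most black points lie to the right of 0, the 5 membrane genes lie between -0.09 and 0.28, and the symbols of Mx1 lie furthest apart.

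The membrane proteins, which block virus entry or hold budding virus at the surface, included the 4 most abundant members and, as a role, had the lowest median log2 ratio (0.03). Summed over the 5 genes they made up 5397 CPM in WT and 5684 CPM in KO, a ratio of 1.05, and 0 of 5 were past 1.5-fold. Ifitm1 was at 1993 and 1960 CPM (log2 ratio -0.02), Ifitm2 at 1145 and 1169 CPM (0.03) and Ly6e at 667 and 625 CPM (-0.09). The per-cell levels overlapped over nearly the whole range. Ifitm1 ran from 0.45 through a median of 16.3 to 136 UMIs per 10000 UMIs in WT cells, and from 0.51 through 18.6 to 88.3 in KO cells. Ifitm3, which acts in endosomes, had 1470 and 1788 CPM and a log2 ratio of 0.28, but 1 KO cell held 3552 of its UMIs (12.3%). The median of Ifitm3 was 12.89 UMIs per 10000 in WT cells and 12.99 in KO cells, and its log2 ratio was 0.03 on the authors' normalized values. Bst2 (tetherin) was at 122 and 143 CPM, a log2 ratio of 0.23 that was -0.06 on the normalized values. Since the 3 Ifitm genes are close relatives in sequence, the split of reads between them is uncertain in the same way as for Oas1a.

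Among the remaining 8 members, Sp100, a protein of nuclear bodies, and Rtp4, an interferon-induced transporter chaperone, had the largest ratios. Sp100 was at 47.7 CPM (44.9 to 50.7) in WT and 107 CPM (102 to 113) in KO, a log2 ratio of 1.17 (1.06 to 1.28). Rtp4 was at 44.8 and 93.6 CPM, a log2 ratio of 1.06 (0.94 to 1.18). Both also differed in the share of cells, at 32.8% and 53.4% for Sp100 and 23.2% and 38.0% for Rtp4. Trim30a, a tripartite motif protein, was at 70.0 and 119 CPM (log2 ratio 0.77), Ifi27, a small mitochondrial membrane protein, at 143 and 210 CPM (0.55) and Xaf1, a partner of the apoptosis inhibitor XIAP, at 58.7 and 82.9 CPM (0.50). Ifi27 was found in almost the same share of cells in both labels, 57.5% and 58.1%. The secreted protein Lgals3bp was at 198 and 246 CPM (0.31) and the adaptor Ifi35 at 105 and 118 CPM (0.18). Ifi44 showed no difference beyond counting error, with 424 and 341 UMIs and a log2 ratio of 0.09 (-0.12 to 0.30).

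Counting error alone was small for most members. The 95% counting interval of the ratio lay above 1 for 39 members, below 1 for 3 (Irgm1, Ifitm1 and Ly6e) and held 1 for 3 (Ddx58, Ifit1 and Ifi44). Over all genes it lay above 1 for 39.2% and below 1 for 35.7%, and the spread between cells, libraries and mice is in none of these intervals.

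Detection was then compared at 20000 UMIs a cell, so that depth was equal. The share was higher in KO for 41 of 45 members, beside 46.6% of all genes. The median difference was 4.52 percentage points over the members and -0.28 over all genes. Intervals were apart, with KO higher, for 9 members beside 3.2% of all genes: Irf7, Irf9, Zbp1, Oasl2, Samhd1, Gbp2, Sp100, Trim30a and Rtp4. They were apart with KO lower for 0 members beside 4.21%. Most members were not seen in most cells: Ifitm1, Ifitm2, Ifitm3 and Ly6e were found in at least 95.3% of the cells of either label, whereas Isg15 was found in 7.34% and 12.4%. As a gauge of RNA from other cells, Zp3, a gene of oocytes, was found in 29.7% of the WT cells and 5.65% of the KO cells that were not rich in oocyte transcripts. A WT share of that size or below it is therefore not read as the share of cells that expressed a member. Among the 9 members above, this applies to Irf7 (8.88%), Zbp1 (9.27%), Rtp4 (23.2%) and Oasl2 (29.0%). Samhd1, at 30.1%, was just over the gauge.

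**Figure D3:**
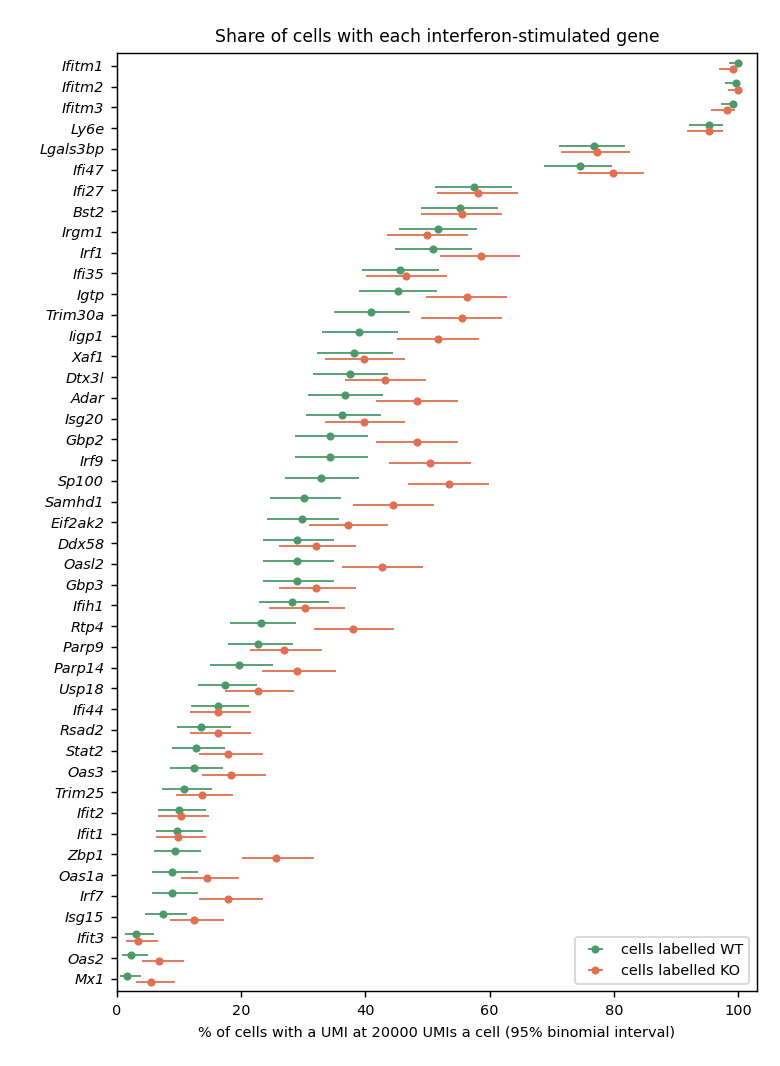
Each row is 1 gene, ordered by its share in WT, and the horizontal axis is the percentage of cells with at least 1 UMI after every cell was thinned to 20000 UMIs; green points are the 259 cells labelled WT and orange points the 234 labelled KO, with exact 95% binomial intervals. Sp100, Zbp1, Irf9 and Rtp4 show gaps between their intervals, while the 4 genes at the top are near 100% in both labels.

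To see whether the difference came from few cells or from many, the members were summed in each cell. All 45 together took a median of 69.9 UMIs per 10000 in WT cells (lowest 26.8, highest 277) and 81.3 in KO cells (33.2 and 485). The 4 most abundant genes made up most of this sum, so the other 41 were also summed alone, a choice made after seeing the data. They took a median of 20.2 per 10000 in WT cells (5.12 to 131) and 26.8 in KO cells (6.53 to 189), and 73.5% of KO cells lay above the WT median. The whole distribution was displaced, since the lower quartile was 14.1 and 20.1 and the upper quartile 27.8 and 37.5, although the labels overlapped over most of the range. At equal depth a cell held UMIs of a median of 11 of these 41 genes in WT (3 to 25) and 14 in KO (5 to 34). The number of all genes detected at that depth was 2946 in WT and 2903.5 in KO, so it did not move in the same direction. Without the cells rich in oocyte transcripts, the medians of the 41-gene sum were 20.9 and 26.9.

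**Figure D4:**
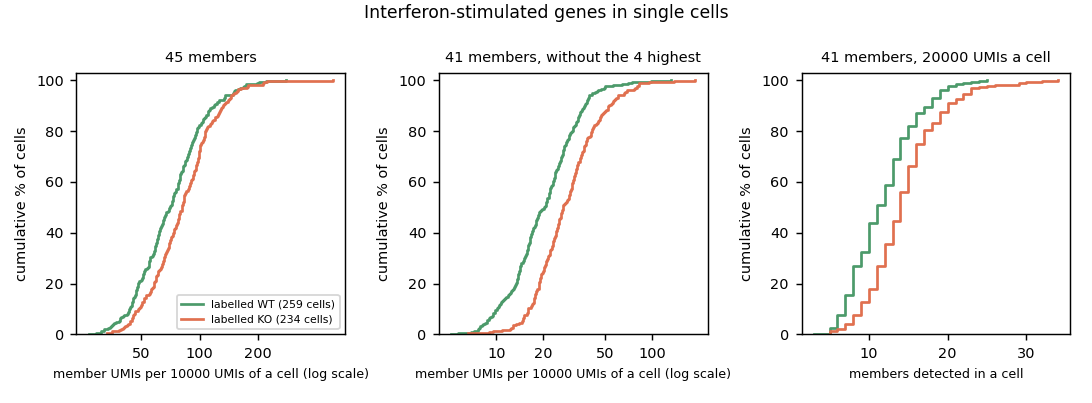
Cumulative percentage of cells, green for WT and orange for KO, by the summed level of all 45 members (left), of 41 members without Ifitm1, Ifitm2, Ifitm3 and Ly6e (middle), both in UMIs per 10000 UMIs on a log axis, and by the number of those 41 detected at 20000 UMIs a cell (right). The KO curve lies to the right of the WT curve over most of each panel, with medians of 20.2 and 26.8 in the middle panel and 11 and 14 in the right panel.

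A few cells stood above the rest in both labels. The 26 WT cells in the highest 10% held 17.7% of the UMIs of the 41 genes and 7.398% of all UMIs, and the 23 KO cells in the highest 10% held 25.7% and 9.71%. In the WT cell with the highest sum (131 per 10000) the leading members were Iigp1 with 409 UMIs, Irgm1 with 215 and Igtp with 196. In the highest KO cell (189 per 10000) they were Igtp with 437, Ifi47 with 285 and Isg20 with 272, and 32 of the 41 genes were detected. This same cell, with 178749 UMIs, held the 147 Irf7, 52 Ifit3 and 3552 Ifitm3 UMIs given above for 1 KO cell. It therefore raised the KO level of several members at once, and no alternative ratio left it out for all genes together. The second KO cell (138 per 10000) was led by Rtp4, Xaf1 and Iigp1 and had 34 of 41 detected. A GTPase led each of the 5 highest WT cells and 3 of the 5 highest KO cells, and WT cells with many members at once were also found, with up to 25 detected.

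The members varied between cells only weakly together. Over 741 pairs of the 39 members with a mean of at least 1 UMI, the median Pearson's r of log2(CPM/100 + 1) was 0.047 over 259 WT cells and 0.059 over 234 KO cells, beside medians near 0.000 for pairs of all genes. These values describe sparse counts from cells that share libraries and differ in depth, and most of them are too weak to read. Igtp and Iigp1 had the highest Pearson's r in both labels, 0.47 in WT and 0.41 in KO. Igtp with Irgm1 gave 0.39 and 0.20, and Ifitm1 with Ifitm3 0.29 and 0.29. Ifit1 with Rtp4 differed between the labels, at 0.13 and 0.36, which was not tested. Pairs with Pearson's r over 0.3 numbered 4 in WT and 5 in KO. By Spearman's rho, which depends less on single high cells, Ifitm1 with Ifitm3 was highest in both labels (0.33 and 0.34). By that measure Igtp with Iigp1 had 0.23 in WT and 0.29 in KO, and in WT other pairs, such as Igtp with Irgm1 (0.31), were higher. The summed member level had r of -0.06 (WT) and -0.04 (KO) with log2 of a cell's UMIs.

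**Figure D5:**
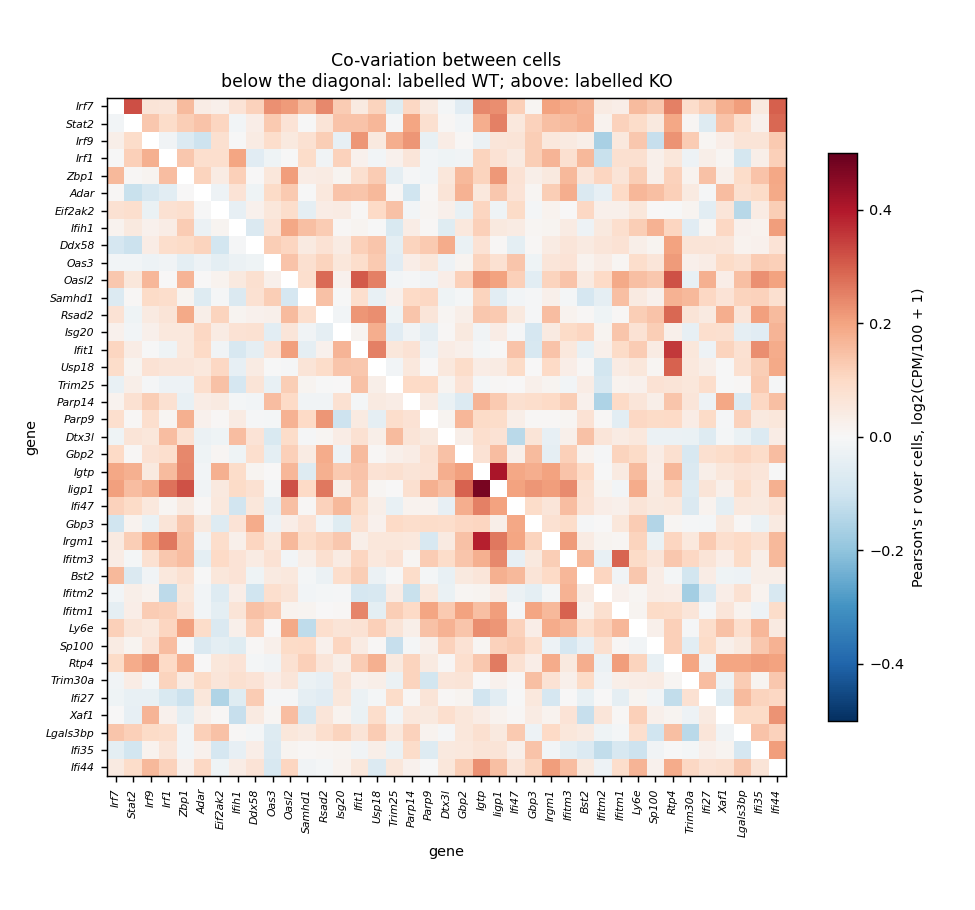
Each square is Pearson's r between 2 of 39 members over cells, below the diagonal for 259 WT cells and above it for 234 KO cells, with red for positive and blue for negative values on a scale from -0.5 to 0.5. Most squares are pale, the darkest is Igtp with Iigp1 (0.47 and 0.41), and the rows of Irf7, Oasl2 and Rtp4 are redder above the diagonal.

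The other genes of the pathway were examined from lists written by role. Of 150 listed genes, 108 were in the table, 45 of which (41.7%) were at least 1.5-fold higher in KO and 5 (4.63%) at least 1.5-fold lower, beside 17.2% and 15.5% of all genes. Their median log2 ratio was 0.41. With cells thinned to equal depth the count of 45 was 28 and with the authors' normalized values 25. None of the 20 interferon ligand genes was in the table. The 5 receptor chains had a median of 0.50, and 2 were past 1.5-fold. Ifnar1 was at 33.4 and 58.1 CPM (log2 ratio 0.80), Ifnar2 at 118 and 178 CPM (0.60) and Ifngr1 at 88.8 and 126 CPM (0.50), whereas Ifngr2 was at 26.7 and 31.3 CPM (0.23) and Il10rb at 36.9 and 37.9 CPM (0.04). Of the kinases, Tyk2 was at 7.40 and 18.7 CPM (1.33) and Jak2 at 15.5 and 24.7 CPM (0.67), both past 1.5-fold, and Jak1, at 185 and 215 CPM, was not past it (0.21). The 8 interferon regulatory factors had a median of 0.32, and 2 were past 1.5-fold higher. The largest was Irf8 (1.48), which is also the plasmacytoid dendritic cell marker given above.

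The feedback inhibitors had a median log2 ratio of 0.21 over 14 genes, which was -0.08 on the authors' normalized values, and 2 were past 1.5-fold higher and 1 lower. Socs3, which blocks JAK kinases, was nevertheless among the 3 largest ratios of all these lists, at 3.73 and 14.5 CPM (80 and 234 UMIs, log2 ratio 1.96), in 3.47% of WT and 13.2% of KO cells. The other 2 were Traf3, a signalling adaptor of the sensors, with 62 and 282 UMIs (2.59), and Helz2, an interferon-induced helicase, with 66 and 191 UMIs (1.94). Rarer listed genes reached a log2 ratio of 5.82. With the same minimum, the smallest ratios were those of Ticam1, the adaptor of Toll-like receptor 3 (-1.59), Trim56, a ubiquitin ligase (-0.86), and Pnpt1, a mitochondrial RNA-degrading enzyme (-0.84). For Ticam1 1 WT cell held 38.6% of its 220 WT counts, and its log2 ratio was 0.10 when cells were thinned to equal depth. Of 64 other interferon-stimulated genes in the table, 32 were at least 1.5-fold higher and 3 lower, with a median of 0.57.

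Outside the members and these lists, the 10 genes of 9325 whose level followed the summed member level most closely over cells, by the mean of the r within each label, were B2m (0.44), Cd74 (0.43), Gm4951 (0.42), Serpina3f (0.41), Ltb (0.40), Itm2b (0.35), Procr (0.35), Ly6a (0.35), H2-K1 (0.34) and Serpina3g (0.33). B2m and H2-K1 encode chains of MHC class I, and Cd74 the invariant chain of MHC class II. Their own differences between labels were not alike, since the log2 ratio was 0.40 for B2m and 0.92 for Serpina3f but -0.53 for Ly6a (Sca1, a sort marker) and -0.29 for Procr. These correlations join cells of pooled libraries and are given as descriptions.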

How the data were processed

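The deposited table holds log2 values, which per the study are UMI counts per gene (mouse transcriptome, build mm9), filtered on cells and on a mean count over 0.2, and normalized by the authors. The aligner and normalization method were not given in the sources used here. With the log2 undone, values of a cell were whole multiples of 1 step, so counts were recovered: 100% of values above 0 were whole within 0.01. No column was without a label (0). Column names give genotype only. The design had foreseen counts per library, and its fallback of 1 pool per genotype was used, with no test.

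UMIs of kept cells were summed per label and scaled to CPM, and counts under 3 were raised to 3. Intervals (95%, exact Poisson for CPM, Clopper-Pearson for ratios and shares) cover counting error only. Each cell was thinned at random to 20000 UMIs for shares. An alternative left out cells in which oocyte genes took over 1000 CPM. Python 3.11.15, numpy 2.4.6, pandas 2.3.3 and scipy 1.17.1 were used, and the calculations were tested on simulated data. No doublet caller was run on these hand-picked cells, and no clustering was done.

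The members and lists were chosen with earlier results of these data known. Values are given for every member, and in more detail for the 20 with the most UMIs and, with a mean of at least 0.5 UMI, the 5 largest and 5 smallest ratios. Pathway genes are named by the 3 largest and 3 smallest ratios with the same minimum, and co-varying genes as the 10 highest. Other pathway genes in the text, and the 6 promoters printed, were picked with their values known. Alternatives were other cell filters, depths, scalings, cell weights and motif settings.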

Additional observations from a re-analysis of the deposited data

How the results depend on the processing

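No paired analysis was possible because neither library nor replicate number is in the column names and no test was run; leaving out each library in turn was not run for the same reason. Of the 45 members, 37 had the same direction in the main calculation and 9 alternatives. The other 8 (Bst2, Ddx58, Ifi35, Ifi44, Ifitm1, Ifitm2, Irgm1 and Trim25) changed sign under at least 1, and none of those 8 was past 1.5-fold. The share of all genes that kept their direction is not given here, so the 37 are a description. The 3 scalings shifted all log2 ratios by -0.03. With the mean of the authors' normalized values, the members past 1.5-fold numbered 13 in place of 23, the pathway genes 25 in place of 45, and the median of the pathway genes was 0.21 in place of 0.41. With cells thinned to 20000 UMIs the last 2 values were 28 and 0.26. With a 2-fold limit 10 members remained. The lower count was 0 members throughout. The median r between members was 0.054 in WT and 0.052 in KO as Spearman's rho, where pairs of the 7554 background genes had medians of 0.023 and 0.016. It was 0.037 and 0.056 with thinned cells, and 0.040 and 0.042 without the 5 highest cells of each label. With 1 mismatch allowed, the ISRE core was found in 91.4% of members and 38.9% of all genes, and the GAS core in 88.6% and 74.2%. The difference of the median summed level of the 45 members was 11.4 UMIs per 10000 in the main setting. It was 8.78 to 12.8 over other cell filters and depths. For the sum without the 3 or the 4 most abundant members it was 5.37 and 6.55. The median difference in share was 3.07 to 4.74 percentage points. The cause of these shifts was not tested. Members with under 200 UMIs in a pool, such as Oas2, Mx1 and Ifit3, rest on few cells.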
